A study of Mus musculus with 10 samples.

Results

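H3K27me3 summits that were listed in Arid1a knockout (KO) AB17 hepatocytes and had no wildtype (WT) H3K27me3 summit nearby were examined. A KO summit on chromosomes 1 to 19 was counted as KO-only when its −log10 q in the KO list was at least 5 and no WT summit of any strength lay within 3 kb. Of 10122 autosomal KO summits of at least 5, 757 were KO-only, which is 7.48%. The other 9365 had a WT summit within 3 kb and are called retained sites. The members were thus selected on the KO −log10 q and on the distance to the WT summits, and these values are given as a description.

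AB17 cells are primary hepatocytes of an Arid1a fl/fl mouse (strain C57BL/6), immortalized with SV40 large T antigen, transduced with an H-Ras oncogene virus and selected with puromycin, and all groups share this background. WT cells (Arid1a fl/fl) were infected with the adenovirus Ad-GFP and KO cells (Arid1a-/-) with Ad-Cre. H3K27me3 and H3K9me3 were profiled by ChIP-seq in both genotypes, whereas Arid1a, Brg1, Ctcf and Rad21 were profiled in WT cells only. Each group was 1 library of 1 cell line, so no difference has a replicate check, no p-value is given, and genotype and library cannot be told apart. The WT list had 108777 autosomal H3K27me3 summits and the KO list had 85640, and the read depth behind them is unknown. Expression was not measured in these files, and the hepatocyte label could not be checked by it. H3K27me3 summits lay within 2 kb of the starts of 3 of 10 hepatocyte markers in each genotype (Hnf4a and Cebpa in both), of 2 of 4 endothelial markers in WT and 1 in KO, of 2 of 3 cholangiocyte and 2 of 4 stellate and fibroblast markers in both, and of 0 of 4 leukocyte markers in either. Over all autosomal protein-coding starts the share was 24.1% in WT and 20.5% in KO, so these counts do not check the label. No KO-only site lay within 2 kb of any of these marker starts. Only 0.303% of all autosomal protein-coding starts had a KO-only site that near, so nothing is read from this absence.

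H3K27me3 is the trimethylated lysine placed on histone H3 by Polycomb repressive complex 2, and it is bound by the Cbx subunits of Polycomb repressive complex 1. In differentiated cells the mark covers the CpG-rich starts of developmental regulators of other lineages, often as domains that run over whole gene clusters. Arid1a and the ATPase Brg1 (Smarca4) are subunits of SWI/SNF, a chromatin remodelling complex known to oppose Polycomb at many genes. Ctcf binds a long motif through its zinc fingers and stops the cohesin ring, of which Rad21 is a subunit, at the anchors of chromatin loops.

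The sequences of members of different kinds are shown as 151 bases centred on the KO summit, read from the plus strand of mm10 (GRCm38), with CG dinucleotides in capitals. The first 5 are among the 6 strongest KO-only sites at protein-coding gene starts outside masked repeats. The last 3 were chosen after their values were seen. They are the strongest member of all, which lies among 5S rRNA genes, the member farthest from any WT summit, which lies in an intron of Epha3, and the farthest of the members inside Snhg14.
Neurod2, chr11:98328839-98328989: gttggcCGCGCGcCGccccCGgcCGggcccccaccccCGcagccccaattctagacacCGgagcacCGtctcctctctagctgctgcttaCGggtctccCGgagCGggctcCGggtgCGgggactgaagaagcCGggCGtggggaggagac
Cbx8, chr11:119042547-119042697: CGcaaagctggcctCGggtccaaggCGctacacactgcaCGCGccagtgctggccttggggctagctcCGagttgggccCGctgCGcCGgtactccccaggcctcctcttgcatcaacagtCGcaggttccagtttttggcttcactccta
Olig3, chr10:19357416-19357566: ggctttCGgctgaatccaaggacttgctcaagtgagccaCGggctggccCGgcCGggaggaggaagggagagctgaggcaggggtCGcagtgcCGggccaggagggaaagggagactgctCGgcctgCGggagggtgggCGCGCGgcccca
Slc32a1, chr2:158611536-158611686: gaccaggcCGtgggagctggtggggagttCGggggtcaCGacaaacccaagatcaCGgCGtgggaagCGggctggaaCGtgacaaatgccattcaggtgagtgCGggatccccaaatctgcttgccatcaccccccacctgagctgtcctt
Gm4881, chr7:24943513-24943663: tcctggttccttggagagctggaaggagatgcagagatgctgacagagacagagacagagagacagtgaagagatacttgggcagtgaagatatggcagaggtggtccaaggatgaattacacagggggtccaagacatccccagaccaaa
5S array, chr8:123570662-123570812: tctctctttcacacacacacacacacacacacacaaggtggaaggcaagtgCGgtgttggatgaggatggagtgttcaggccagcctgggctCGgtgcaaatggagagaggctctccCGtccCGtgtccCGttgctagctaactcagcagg
Epha3 intron, chr16:63833717-63833867: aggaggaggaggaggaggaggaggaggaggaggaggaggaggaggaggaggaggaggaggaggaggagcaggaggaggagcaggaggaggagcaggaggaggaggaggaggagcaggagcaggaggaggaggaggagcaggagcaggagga
Snhg14, chr7:59894386-59894536: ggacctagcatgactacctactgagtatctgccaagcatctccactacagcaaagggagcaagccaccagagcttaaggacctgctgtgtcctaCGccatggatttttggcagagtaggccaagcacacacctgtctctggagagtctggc

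The Neurod2 sequence held 16 CG dinucleotides, Olig3 held 11, Cbx8 held 10 and Slc32a1 held 8, while Gm4881 held 0. The Epha3 sequence is a run of short trinucleotide repeats with 0 CG dinucleotides, and its summit base is soft-masked in the reference. CpG-rich windows such as that of Neurod2 were the minority among the members. A window of 501 bases around the summit was called CpG island-like when its GC content was at least 50% and its observed-to-expected CpG ratio at least 0.6. Of the 757 members, 26 (3.43%, 95% Wilson interval 2.35 to 4.98) were CpG island-like, against 945 of 9365 retained sites (10.1%, 9.50 to 10.7) and 0.742% of autosomal windows. The median GC content was 51.1% in both KO-only and retained sites. The median CpG ratio was 0.216 in KO-only and 0.237 in retained sites. The summit base was soft-masked in 147 members (19.4%, 16.8 to 22.4) and in 13.7% of retained sites (13.0 to 14.4). All intervals in this text cover counting error only, because neighbouring summits are not independent.

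The members were not weaker than the retained sites, and the minimum of 5 put both above the median of all autosomal KO summits (2.75). Member −log10 q ran from 5.01 to 55.5 with a median of 6.998 (quartiles 5.69 and 9.74). The retained sites had a median of 6.30 (quartiles 5.52 and 8.65). The KO-only share was 5.93% (237 of 3999, 5.24 to 6.70) for KO summits from 5 to 6. It was 9.88% (110 of 1113, 8.27 to 11.8) from 8 to 10, and 9.76% (28 of 287, 6.84 to 13.7) for those of at least 20. The share was thus higher, not lower, in these stronger bins. From 15 to 20 it was 8.46% (33 of 390, 6.09 to 11.6), an interval that overlaps that of 5 to 6. The distance to the nearest WT summit had a median of 4527 bp (quartiles 3559 and 6550). It was between 3 and 4 kb in 295 members, over 10 kb in 94 and over 50 kb in 13. At the limits of the rule, the weakest member had a −log10 q of 5.01, and the strongest summit just below the threshold that met the distance limit had 4.9998. The nearest WT summit to a member was 3002 bp away, and the farthest one among retained sites was exactly 3000 bp away.

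The WT list was seldom empty around these places. A flanking WT summit means the next one to the left or right, at any distance. It reached a −log10 q of 5 at 703 of 757 members (92.9%) and at 74.7% of retained sites. The stronger of both flanking WT summits had a median −log10 q of 14.97 at members and 7.61 at retained sites, and it reached 10 at 549 members (72.5%, 69.2 to 75.6) and at 31.6% of retained sites (30.7 to 32.6). It was above the member's own KO value in 651 of 757 cases (86.0%) and above the site's own value at 53.6% of retained sites, although −log10 q values of different libraries are not on a common scale. WT summits lay within 10 kb on both sides of 453 members (59.8%), less often than at retained sites (89.3%). The gap between the flanking WT summits was 13376 bp at the median member and 3606.5 bp at the median retained site, and the rule itself demands a gap of over 6 kb. The nearest other KO summit was 2551 bp away at the median member and 1839 bp at the median retained site. The name KO-only therefore refers to the summit alone. Peak widths were not in the files, so a WT peak that runs across the member with its summit elsewhere and a member without WT signal cannot be told apart.

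**Figure D1:**
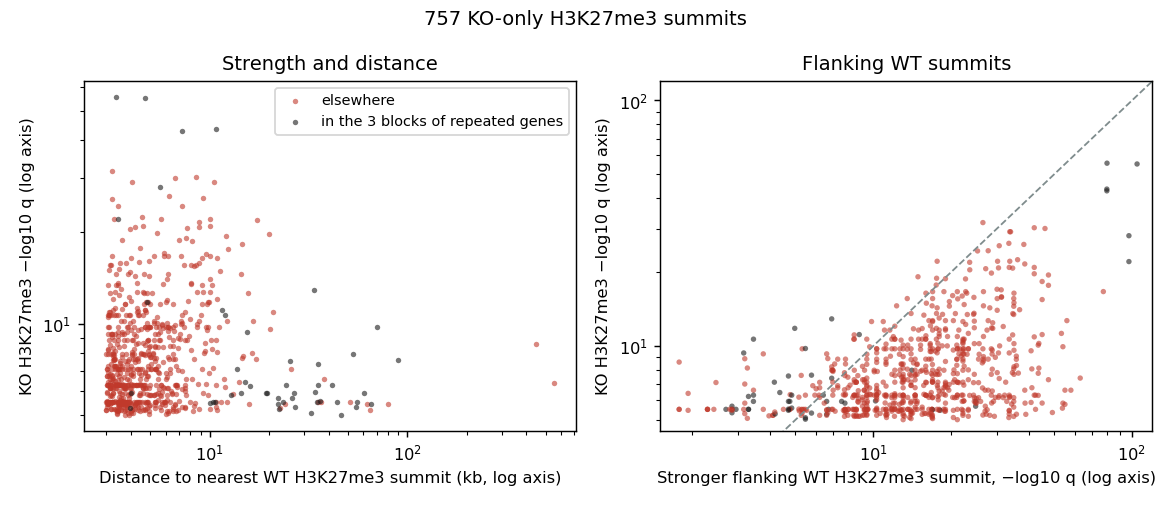
KO −log10 q of each of the 757 KO-only H3K27me3 summits against its distance to the nearest WT H3K27me3 summit (left, kb) and against the stronger of its flanking WT summits (right, −log10 q), all on log axes, with 1 point per summit. Black points mark the 48 members in the 3 blocks of repeated genes, the dashed line marks equal values, and 651 points lie to its right.

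The same rule run in the other direction gave 353 WT summits without a KO summit within 3 kb among 12373 WT summits of at least 5 (2.85%). The stronger flanking KO summit had a median −log10 q of 8.84 at these WT-only sites. Both directions compare the same 1 library per genotype, and the lists differ in length. With the WT list shortened to as many of its strongest summits as the KO list holds, 807 KO summits were KO-only in place of 757.

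Members were less often within 2 kb of transcript starts than retained sites. Within 2 kb of an annotated transcript start lay 169 of 757 members (22.3%, 19.5 to 25.4), 34.2% of retained sites (33.2 to 35.1) and 11.4% of autosomal windows. The share was lower in members on 16 of 19 autosomes. With a window of 5 kb the shares were 45.4% and 48.5%, and the first lies within counting error of the second. Members over 10 kb from a WT summit had 29.8% (28 of 94), against 33.3% of the other KO sites. The remaining members comprised 38 in exons (5.02%), 287 in introns (37.9%) and 263 between genes (34.7%), against 3.63%, 27.2% and 35.0% of retained sites. From the outermost start of a protein-coding gene, 254 members (33.6%) lay over 2 and up to 10 kb away, against 18.6% of retained sites, so members lay less often on the start and more often on its flanks. This position is tied to the rule, because a site at a start that also carried a WT summit could not become a member.

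Upon the count by genes, 63 of 20804 autosomal protein-coding gene starts had a KO-only site within 2 kb (0.303%), at 59 different members. A retained site lay within 2 kb of 1912 starts. The 25 starts with the strongest KO-only site included 12 genes of the 13 gene lists described below, and all 63 included 18 (28.6%). The lists hold 718 of all 20804 starts (3.45%) and 231 of the 1912 starts with a retained site (12.1%). The genes with the strongest members were chosen by the same values as the members, and nothing is read from their count. Among all 63, the stronger flanking WT summit reached 10 at 48, and it exceeded the KO value at 53. All 25 of the strongest had a flanking WT summit of at least 10.

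The strongest was Tmem151b, a transmembrane protein gene on chromosome 17, with a KO summit of 31.8 lying 683 bp inside the gene and a WT summit of 26.5 at 3204 bp. At Neurod2, a neuronal basic helix-loop-helix factor on chromosome 11, the KO summit of 30.3 lay 734 bp inside the gene and the nearest WT summit, of 41.9, lay 8568 bp away. The start of Neurod2 itself was 7834 bp from the nearest WT summit.

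At Cbx8, which encodes a Polycomb subunit that binds H3K27me3, the KO summit of 30.1 lay 1653 bp upstream of the start. The nearest WT summit was weak, with 1.79 at 6661 bp, whereas the flanking summit on the other side reached 46.1 at 12320 bp. Slc32a1, the vesicular transporter that loads GABA and glycine, had a KO summit of 25.6 at 844 bp inside the gene and a WT summit of 30.7 at 3220 bp. These values place a strong WT summit within the same gene neighbourhood in each case.

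**Figure D2:**
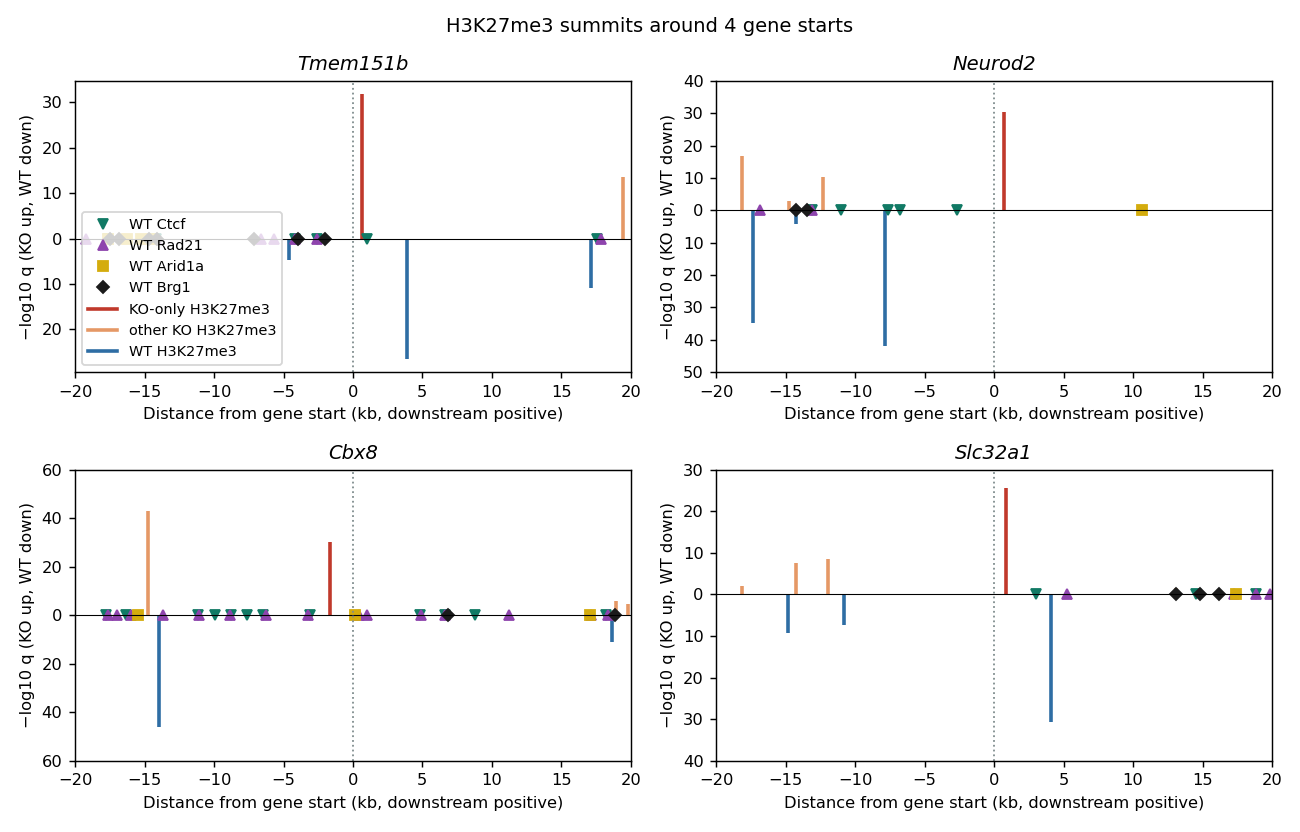
H3K27me3 summits within 20 kb of the starts of Tmem151b, Neurod2, Cbx8 and Slc32a1, with −log10 q of KO summits drawn upward and of WT summits downward against the distance from the gene start in kb (downstream positive). The KO-only summits (dark red) reach 31.8, 30.3, 30.1 and 25.6, each with no blue WT line within 3 kb, and markers on the zero line give the positions of WT Ctcf, Rad21, Arid1a and Brg1 summits.

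The other basic helix-loop-helix genes were Olig3, a spinal cord progenitor factor, Sim2, a midline factor, and Neurog1, a proneural factor. Their KO-only summits had −log10 q values of 24.4, 22.1 and 8.84, and the nearest WT summits lay at 3427, 10010 and 7508 bp. Olig3 sat in a crowded domain, with 16 KO and 16 WT summits within 20 kb of its start.

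Homeobox genes outside the Hox clusters contributed Cdx2, an intestinal regulator (20.4), Six6, an eye and pituitary factor (16.6), Nkx2-2 (16.0) and Nkx2-1 (13.0), which pattern the ventral neural tube, forebrain and lung, and Lhx4, a pituitary and motor neuron factor (8.67). The nearest WT summit to these 5 lay between 3570 and 5216 bp. Of other developmental regulators, Foxd2 had a KO-only summit of 17.7, Prdm13 of 17.0, Sp9 of 13.4, Ebf2 of 11.6 and Gata3, which directs T cell and sensory development, of 6.91. Genes of mature neurons were Nrxn2, a synaptic adhesion protein (21.6), Ncan, a brain matrix proteoglycan (18.9), Hpca, a neuronal calcium sensor (15.6), and Cbln1, a synapse organizer (15.6). In the list of 103 neuronal and ion channel genes used below, only Nrxn2 had a KO-only site within 2 kb, while 58 had a retained site. Over all protein-coding starts these shares were 0.303% and 9.19%, so no neuronal theme is read from the named genes. The remaining 7 of the 25 were Gm4881 (29.2), Gfy and Pth2, which share 1 member (22.5), Dusp15 (15.9), Il11ra1 (13.6), 4930447C04Rik, which shares its member with Six6, and Hoxd8 (10.9).

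Hox genes specify position along the body axis and lie in 4 clusters. The Hoxc cluster (chr15:102921103-103036852) held 5 members, with −log10 q from 5.23 to 7.29, beside 7 retained sites. The Hoxd cluster (chr2:74668310-74765142) held 3, from 10.9 to 20.9, beside 2 retained sites. The Hoxb cluster held 1 of 14.5 beside 9 retained sites, and the Hoxa cluster held 0 beside 1. In the Hoxd cluster the WT list had 4 summits, of which the strongest reached 41.9, and the KO list had 7. The member 563 bp upstream of the Hoxd8 start was 21004 bp from the nearest WT summit, the highest distance among the 25 genes. Hoxc9 had a KO-only summit of 5.86, and Hoxc5 and Hoxc10, whose annotated outermost starts lie close together, shared 1 of 6.60.

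Of the 13 gene lists, those of developmental transcription factors lay most often within 50 kb of a KO-only site. The share was 19 of 39 Hox genes (48.7%), 39 of 110 other homeobox genes (35.5%), 20 of 60 Pax, T-box, Gata, Sox and Fox factors (33.3%) and 15 of 46 basic helix-loop-helix factors (32.6%), beside 4.82% of all protein-coding genes. The same lists were also near retained sites, with 76.9%, 85.5%, 71.7% and 73.9% within 50 kb beside 30.6% of all protein-coding genes. Neighbouring genes of a cluster share members, so these counts are not independent. Closer to the start, within 2 kb, the counts were 4 of 39, 5 of 110, 2 of 60 and 4 of 46, where retained sites gave 4, 49, 23 and 20. Over all protein-coding starts the shares within 2 kb were 0.303% for members and 9.19% for retained sites.

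The shares of signalling and tissue genes within 50 kb of a KO-only site were lower than those of the 4 lists above. Over all protein-coding genes, 4.82% lay within 50 kb of a KO-only site and 30.6% within 50 kb of a retained site. Within 50 kb of a KO-only site lay 7 of 80 Wnt, Bmp, Fgf and Hedgehog genes, among them Shh, Ihh and Wnt1, and 10 of 103 neuronal and ion channel genes, while 60.0% and 68.0% of these lists lay within 50 kb of a retained site. For adhesion and extracellular matrix genes the count was 3 of 90 (3.33%, retained sites 36.7%). For epithelial-mesenchymal transition genes it was 1 of 40 (Foxc2, 2.50%, retained sites 35.0%). Of 52 hepatocyte genes, 5 (9.62%) had a KO-only site within 50 kb, and 51.9% had a retained site. The 5 were Ass1, Hnf4a, Nr5a2, Pck1 and Prox1, with roles in the urea cycle, hepatocyte transcription and gluconeogenesis. Within 2 kb, 0 of the 52 had a KO-only site, beside 0.303% of all protein-coding genes. Of the 58 Polycomb and SWI/SNF subunit genes, 6 (10.3%, retained sites 41.4%) were within 50 kb, among them Cbx2 and Cbx8. The other lists gave 2 of 32 cell cycle brakes and p53 pathway genes (Rassf1 and Trp73), 0 of 20 endothelial and leukocyte markers, and 0 of the 10 genes named by the study. Of those 10 genes, the start of Six2 was the nearest to a member, at 57640 bp.

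**Figure D3:**
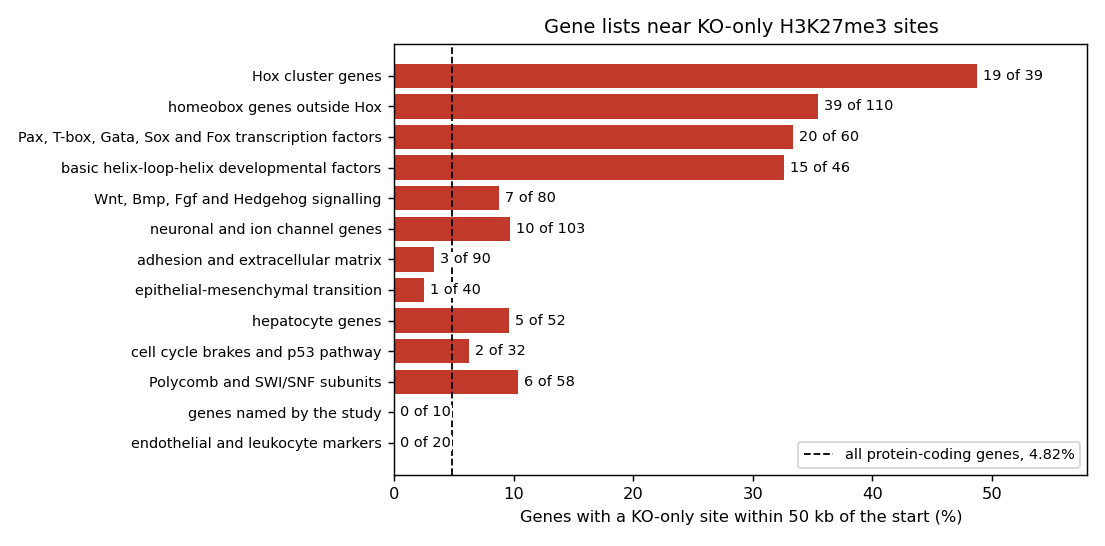
Share of the genes of each of 13 lists whose outermost start lay within 50 kb of a KO-only H3K27me3 site (bars, in percent, with counts), and the share of all autosomal protein-coding genes (dashed line, 4.82%). The 4 lists of developmental transcription factors reach between 32.6% and 48.7%, and the other 9 stay at or below 10.3%.

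WT Arid1a and Brg1 summits were scarce at the members. An Arid1a summit lay within 1 kb of 28 of 757 members (3.70%, 2.57 to 5.29), of 3.27% of retained sites (2.93 to 3.65) and of 5.47% of autosomal windows of the same width. A Brg1 summit lay within 1 kb of 19 members (2.51%, 1.61 to 3.89), of 2.75% of retained sites (2.44 to 3.11) and of 6.23% of windows. For both subunits the intervals of members and retained sites overlapped, and both were below the share of the windows. The factor summits concerned were weak, with a median −log10 q of 2.57 for Arid1a and 2.56 for Brg1. The medians of all autosomal summits of these lists were similar, at 2.70 and 2.56, so weakness was not particular to the members. With summits of at least 5, 1 member had Arid1a and 0 of 757 had Brg1, which allows a share of up to 0.396% by 3 counts and 0.505% by the Wilson limit. Retained sites had 5 of 9365 (0.0534%) for each subunit, and windows had 0.143% for Arid1a and 0.262% for Brg1, so a share as low as that of retained sites would not be detectable among 757 members. Both subunits together lay at 2 members. In the promoter class alone, Arid1a was at 5.33% of members (2.83 to 9.81) and 144 of 3200 retained sites, and Brg1 at 3.55% (1.64 to 7.53) and 4.84%.

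The member with the strongest Arid1a summit, of 5.66 at 809 bp, was the one at chr8:19784025 of −log10 q 5.19, which lay 54449 bp from the start of 4930467E23Rik and had summits of all 4 factors. At that place Rad21 lay at 7 bp, Ctcf at 567 bp, Brg1 at 785 bp and KO H3K9me3 at 6 bp, so summits of lists with different targets were stacked there. The strongest Brg1 summit at a member, of 4.28 at 438 bp, was at the start of Mei1, a meiotic gene, where the KO-only summit had 10.5. Sp9, Hoxc9, Dnmt3b, which encodes a DNA methyltransferase, and Snu13 were the other protein-coding starts whose member had an Arid1a or Brg1 summit, with values between 1.43 and 3.06. Among the 25 genes with the strongest members, Sp9 had Arid1a, and 0 had Brg1.

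WT Ctcf and Rad21 summits were more frequent. Ctcf lay within 1 kb of 103 members (13.6%, 11.3 to 16.2), of 15.4% of retained sites (14.7 to 16.2) and of 6.66% of windows. Rad21 lay within 1 kb of 123 members (16.2%, 13.8 to 19.0), of 17.6% of retained sites (16.9 to 18.4) and of 7.36% of windows. Both together were at 49 members (6.47%, 4.93 to 8.45) and at 8.51% of retained sites (7.96 to 9.09). Members and retained sites thus had overlapping intervals for both factors. Outside the promoter class the Ctcf share was 12.8% of members and 12.6% of retained sites, and the Rad21 share was 15.1% and 13.2%. In the promoter class, Ctcf was at 16.6% (11.7 to 22.9) and 20.8% (19.4 to 22.2), and Rad21 at 20.1% (14.8 to 26.8) and 26.2% (24.7 to 27.7). Of KO summits of at least 8, Rad21 accompanied 19.1% of members (14.9 to 24.2) and 25.6% of retained sites (24.0 to 27.3), and these intervals overlapped only slightly.

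**Figure D4:**
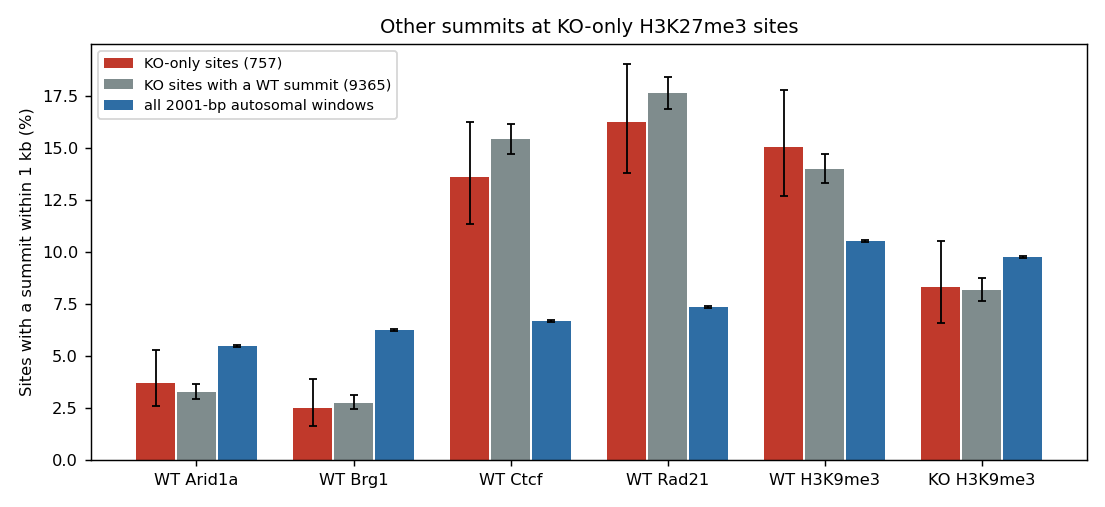
Share of sites with a summit of each other list within 1 kb (percent, with 95% Wilson intervals as error bars) for the 757 KO-only sites, the 9365 retained sites and all 2001-bp autosomal windows. The red and grey bars of each list have overlapping intervals, and for Arid1a and Brg1 both lie under the blue bar, while for Ctcf and Rad21 both lie above it.

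The Ctcf and Rad21 summits concerned had median −log10 q values of 3.35 and 2.96, beside 4.02 and 3.34 for all autosomal summits of these lists. A Ctcf summit of at least 5 was within 1 kb of 32 members (4.23%) and of 5.94% of retained sites, and a Rad21 summit of that strength was within 1 kb of 27 (3.57%) and of 4.72%. The strongest by far was a Ctcf summit of 348 at 567 bp from the member at chr8:19784025. The next were at members near Calcoco1 (99.9, with Rad21 of 45.8), Onecut3, a homeobox gene (71.4, with Rad21 of 26.1), and Meox1, a somite homeobox gene (69.8, with Rad21 of 26.6). At gene starts, Dll3, a Notch ligand of the somites, had Ctcf of 15.5 and Rad21 of 12.5, Lamc3, a laminin chain, had Rad21 of 16.7, Tmem151b had Ctcf of 9.73, and Sp9 had Ctcf of 5.25 at 16 bp from the KO summit. Over all members with a summit of any strength within 1 kb, the median distance to it was 552 bp for Ctcf and 463 bp for Rad21. At retained sites these medians were 490 and 423 bp, so the members were not closer to the factor summits.

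The Ctcf summit at chr8:19784592 is shown as 81 bases with the match to the core motif in capitals.
Ctcf site, chr8:19784552-19784632: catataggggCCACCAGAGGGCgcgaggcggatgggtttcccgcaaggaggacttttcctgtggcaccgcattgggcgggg
The core was searched as CCANNAGNNGGC on both strands. It was found within 50 bp of 13 of the 114 Ctcf summits that lay within 1 kb of a member (11.4%), of 14.4% of all autosomal Ctcf summits, and in 0.491% of autosomal windows of 101 bases. For Ctcf summits of at least 20 the numbers were 7 of 17 beside members and 33.6% of all. Around the KO-only H3K27me3 summits themselves, 27 of 757 windows of 501 bases held the motif (3.57%), beside 3.09% of retained sites and 2.62% of autosomal windows.

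H3K9me3, the mark of constitutive heterochromatin, was read in both genotypes. A WT H3K9me3 summit lay within 1 kb of 114 members (15.1%, 12.7 to 17.8), 14.0% of retained sites (13.3 to 14.7) and 10.5% of windows. A KO H3K9me3 summit lay within 1 kb of 63 members (8.32%, 6.56 to 10.5), 8.19% of retained sites (7.65 to 8.76) and 9.77% of windows. With KO H3K9me3 summits of at least 5, the share was 11 of 757 members (1.45%, 0.813 to 2.58) and 0.448% of retained sites (0.332 to 0.606). The 63 members with a KO H3K9me3 summit of any strength were unevenly placed, as 12 lay on proximal chromosome 14 and 5 inside Snhg14. The placement of the 11 was not counted. The 94 members over 10 kb from any WT H3K27me3 summit had a KO H3K9me3 summit in 21 cases (22.3%) and a WT H3K9me3 summit in 16 (17.0%). The other KO sites had 8.07% and 14.0%. Outside the blocks of repeated genes described next, 7 of 54 such members had a KO H3K9me3 summit, beside 39 of 655 members at 3 to 10 kb. The summit base was soft-masked in 37 of the 94 (39.4%) and in 16.6% of members at 3 to 10 kb.

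3 blocks of repeated genes, picked after their values were seen, held 48 of the 757 members but 40 of the 94 that were over 10 kb from a WT summit. The 5S rRNA gene array of chromosome 8 (chr8:123538786-123622046, 42 annotated 5S genes) held 6 members of −log10 q 22.1 to 55.5, of which 5 were among the 10 strongest KO-only loci. They lay between 264 and 643 bp outside the nearest 5S gene, and the WT list had 6 summits in the array, all of at least 5 and up to 105 beside the members. Beside the 6 members, 5 KO sites of the array were retained, with a WT summit within 3 kb. Reads of near-identical gene copies can be placed on any of them, and whether this bears on the values of single positions here was not tested.

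The body of Snhg14 (chr7:59307924-59975759), the long host transcript of repeated small nucleolar RNAs in the imprinted region next to Snurf and Ube3a, held 9 members and 1 retained site. Their −log10 q ran from 5.03 to 9.76, the nearest WT summit was 25466 to 89814 bp away, and 8 of 9 summit bases were soft-masked. The WT list had 4 H3K27me3 summits in this body and the KO list 11. KO H3K9me3 lay within 1 kb of 5 of the 9, WT H3K9me3 of 2, Arid1a of 2, and Brg1, Ctcf and Rad21 of 0.

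Chromosome 14 had the highest KO-only share of the 19 autosomes, with 44 of 250 KO sites (17.6%, 13.4 to 22.8), and chromosome 18 the lowest, with 3 (1.46%, 0.496 to 4.19). The first 20 Mb of chromosome 14 held 33 of the 44, and 32 of these lay below 8 Mb, among predicted genes with Gm symbols. Their −log10 q ran from 5.27 to 12.9 and the median distance to a WT summit was 22170 bp. A KO H3K9me3 summit lay within 1 kb of 12 of the 33 and a WT H3K9me3 summit of 2. These 20 Mb also held 101 retained sites, for which this share was not counted separately. Over all of chromosome 14, KO H3K9me3 was at 27.3% of members and 11.7% of retained sites, and WT H3K9me3 at 6.82% and 8.74%. Beyond 20 Mb, chromosome 14 had 11 of 116 (9.48%, 5.38 to 16.2). Whether read placement among repeated genes bears on these sites was not tested.

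**Figure D5:**
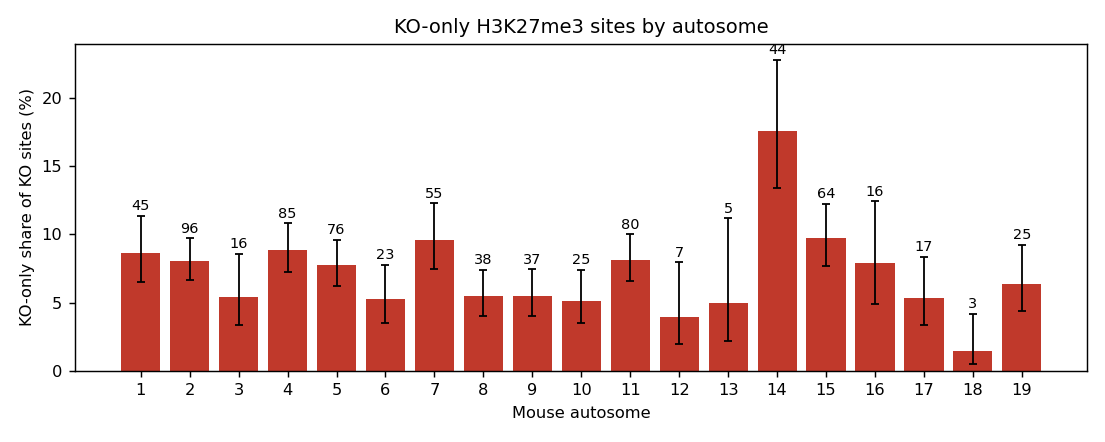
KO-only share of all KO H3K27me3 summits of −log10 q at least 5 on each autosome (percent, 95% Wilson intervals as error bars, counts of members above). Chromosome 14 stands highest at 17.6% and chromosome 18 lowest at 1.46%.

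Outside these blocks, the members farthest from WT summits were single sites. The member at chr16:63833792, within Epha3, an ephrin receptor gene, had a −log10 q of 6.41 and lay 550762 bp from the nearest WT summit, in the repeat printed above. Summits of unrelated lists met at this repeat, with WT Rad21 at 7 bp, WT H3K9me3 at 21 bp and KO H3K9me3 at 144 bp from the member. That on chromosome 18 at position 3004949, near the start of the assembled sequence, had 8.60 and a distance of 444840 bp. A Ctcf summit of 59.7 lay 881 bp and a Rad21 summit of 30.6 lay 866 bp from it. Its summit base was also soft-masked, and a KO H3K9me3 summit lay 64 bp away. The member at Trpa1, a sensory ion channel, lay 126 bp inside the gene with 5.22, in unmasked sequence, and the nearest WT summit was 64586 bp away. The others were at chr8:20694369, 79450 bp from the nearest coding start (Gm21119), and chr15:103875596, 23716 bp from that of Mucl2, both with 5.47. Apart from that on chromosome 18, these sites were below the median −log10 q of the members.

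Members within 3 kb of each other were merged into 687 loci, of which 626 held 1 member, 53 held 2, 7 held 3 and 1 held 4. The locus with 4 lay in Tbc1d30, a Rab GTPase-activating protein gene (chr10:121291606-121297344), with −log10 q up to 6.57 and a WT summit at 3546 bp. Those with 3 lay in Rnf220, Etnk2, Plch2 and Cfap77, and nearest to the starts of Rims4, Ago4 and OR5BS1P. Their highest values ran from 5.52 to 10.1. The stronger flanking WT summit at the 8 loci with 3 or 4 members was 8.75 or higher. The 10 strongest loci, by contrast, were 5 in the 5S array and 5 single members at Tmem151b, Neurod2, Cbx8, Gm4881 and 2027 bp from the start of Irx3, a homeobox gene (29.2).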

How the data were processed

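ChIP-seq peak lists of 8 of the 10 samples were used, 1 library per group, grouped by titles, and the 2 inputs entered only through the authors' peak calling. For the deposited lists the authors mapped reads with Bowtie2 to mm10, filtered them for quality (SAMtools) and duplicates (Picard), and ran MACS2 with its defaults, the matching input serving as background. Versions were not given in the sources used here. The deposited lists give 1 summit per peak with its −log10 q-value in its own library, which grows with depth and ranks summits within a list only. Read depth, pileup and peak width were not analysed here, and narrow calling of a broad mark can move a summit within a domain.

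Members were found with Python 3.11.15, pandas 2.3.3 and NumPy 2.4.6, annotated with GENCODE M21, and sequences read from GRCm38.p6, the same build. Shares have 95% Wilson intervals (SciPy 1.17.1). Background windows were 1197376 adjacent autosomal windows of 2001 bp with fewer than 1000 undetermined bases. The rule was checked on simulated lists. No test across sites was made, with 1 library per group. The members and lists were chosen with earlier results of these data known. Named genes were the 25 protein-coding starts with the strongest member, the 10 loci with most members, highest −log10 q or largest WT distance, listed genes with a member at the start, and 10 genes named by the study. Alternatives changed the −log10 q minimum, the distances, merging and masking. Some items are not reported here.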

Additional observations from a re-analysis of the deposited data

How the results depend on the processing

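Across 67 alternatives for 9 results, 32 values stayed within 1.5 times the main count or within the interval of the main share. The member count of 757 was 2215 with a minimum −log10 q of 3, 167 with 10, 3121 with a WT distance of 1 kb and 94 with 10 kb. Genes at members (63) became 28 with a minimum of 10, 10 with a WT distance of 10 kb and 161 with a window of 5 kb. With a minimum of 10, the share with Brg1 was 1.20%, Ctcf 18.6%, Rad21 21.6%, WT H3K9me3 19.2% and transcript starts 37.1%, while retained sites had 4.25%, 23.0%, 29.6%, 24.5% and 68.0%. For Arid1a, WT H3K9me3 and KO H3K9me3, whose share was slightly above that of retained sites, it was below it at this minimum (Arid1a 3.59% against 4.82%, KO H3K9me3 6.59% against 11.2%). With a WT distance of 10 kb, Arid1a was 5.32% (5 of 94, retained sites 3.28%). KO H3K9me3 was then 22.3% (21 of 94, retained sites 8.07%), and 7 of 54 outside the 3 blocks of repeated genes. Transcript starts were 29.8% (33.3% of retained sites) in that setting, and a 5 kb window gave 45.4% at starts (48.5%). The lower share at starts thus does not hold beyond counting error in these 2 settings. Counting summits within 500 bp gave Arid1a 1.85%, Brg1 0.925%, Ctcf 6.61%, Rad21 8.59%, WT H3K9me3 9.64% and KO H3K9me3 5.94%. Within 3 kb they were 9.25%, 7.93%, 31.8%, 35.0%, 34.3% and 20.3%. With partner summits of at least 5 they were 0.132%, 0%, 4.23%, 3.57%, 0.528% and 1.45%. Without the 3 blocks of repeated genes, an alternative chosen after seeing the data, the KO H3K9me3 share was 6.49% against 8.09% of retained sites. No paired analysis was possible because each group is 1 library. Depth is unknown, and 1 library per group cannot separate genotype from library.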
